A study of Saccharomyces cerevisiae with 55 samples.

Results

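FUS1, FIG1, FIG2, AGA1, KAR4 and PRM1 are genes of the mating programme of budding yeast (Saccharomyces cerevisiae) whose products act late, when partner cells adhere and fuse. They were chosen by gene symbol in the platform annotation. All 6 were found among 5540 named genes, each on 1 probe with a value on every array, so no filter removed a member. The files pair them with the systematic names YCL027W (FUS1), YBR040W (FIG1), YCR089W (FIG2), YNR044W (AGA1), YCL055W (KAR4) and YNL279W (PRM1).

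Haploid yeast cells of opposite mating type signal to each other with peptide pheromones. A receptor at the surface releases a G protein, a MAP kinase cascade passes the signal on, and the transcription factor Ste12 switches on genes for arrest, adhesion and fusion. Most such genes have a low level in growing haploid cells without pheromone, and several genes of the signalling route are shut off in diploids. Aga1 anchors the agglutinin of a cells in the cell wall. Fus1 is a membrane protein at the tip of the mating projection that is needed for fusion, and Prm1 is a membrane protein that acts when the plasma membranes join. Fig1 is a membrane protein of calcium entry during mating, and Fig2 is a cell wall glycoprotein of the mating projection. Kar4 is a regulator that acts with Ste12 on genes of nuclear fusion.

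Total RNA of histone H4 mutants was compared with RNA of a parental H4 strain on 2-colour arrays. Each mutant had arginine in place of 1 or more of lysines 5, 8, 12 and 16 of the H4 tail, which cannot be acetylated, and all 15 combinations were made. The 8 mutants with K16R were K16R (3 samples), K5R/K16R (4), K8R/K16R (4), K12R/K16R (4), K5R/K8R/K16R (3), K5R/K12R/K16R (4), K8R/K12R/K16R (4) and the quadruple K5R/K8R/K12R/K16R (4). The 7 mutants with K16 intact were K5R (3), K8R (3), K12R (3), K5R/K8R (4), K5R/K12R (3), K8R/K12R (3) and K5R/K8R/K12R (5). The reference was the parental strain MDY453 (34 samples, 21 of them with K16R) or MDY470 (20 samples, 9 with K16R). Each mutant was represented by 1 to 3 strains, K8R/K12R by MDY479 alone. The labels give no mating type, medium, further genotype or addition of pheromone.

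Values are log2 ratios centred on each array's median, likely mutant over parental, since the sources used here state no dye or direction. Precision is limited by the number of arrays, and with no spot intensities, weak and strong spots look alike. MDY469, a strain of the quadruple mutant, had that mutant's highest value in FUS1 (-0.45), KAR4 (0.38), FIG2 (1.10) and FIG1 (0.63). None of these was past the critical value of Dixon's outlier test. Another strain of that mutant, MDY487, was highest in AGA1, at -0.12 against -1.07, -1.08 and -1.71. Over all genes MDY469 correlated with the mean of the other samples of that mutant at r = 0.913. The fits without MDY469 were added after seeing the data. Where leaving it out changed a call, the value without it stands beside the result. Genes with an adjusted p under 0.05 in limma, adjusted over all 5540 genes, are said to have passed.

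Replacing K16 went with less RNA of 4 of the 6 genes. FUS1 fell by 1.04 ± 0.08 (log2, SE; 2.05-fold, adjusted p = 2.94e-15 in limma over 54 samples) and AGA1 fell by 0.98 ± 0.10 (1.98-fold, adjusted p = 5.17e-12), as the mean K16R effect over the backgrounds tested. The drop was smaller for PRM1, at -0.41 ± 0.07 (1.33-fold, adjusted p = 4.71e-06), and for KAR4, at -0.32 ± 0.05 (1.25-fold, adjusted p = 2.34e-06). FIG2 rose by 0.17 ± 0.05 (1.12-fold, adjusted p = 0.00591), and FIG1 had an effect of -0.14 ± 0.06 that did not pass (adjusted p = 0.0726). Among all genes tested, 19.0% passed as lower and 20.3% as higher with K16R. The FIG2 call was lost within the samples against MDY453 (0.19, adjusted p = 0.0615) and within those against MDY470 (0.13, adjusted p = 0.185), in the fit with no intercept (0.04, adjusted p = 0.685), and on scaling the arrays to equal spread (0.08, adjusted p = 0.0579), on which scale FIG1 passed as lower (-0.20, adjusted p = 0.00529). FIG1 also passed as lower in the fit with no intercept (-0.27, adjusted p = 0.0017), without MDY469 (-0.16, adjusted p = 0.0404), without the quadruple mutant (adjusted p = 0.037), with strain means (adjusted p = 0.0496) and with no strain block (adjusted p = 0.0279). The median effect was -0.37 over the 6 members and -0.000354 over all genes. In such bulk RNA, fewer cells of a type and less RNA per cell cannot be told apart.

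FUS1 lay at -1.65, -1.19 and -0.45 (lowest, median and highest log2 ratio) in the 30 samples with K16R, against -1.03, -0.02 and 0.16 in the 24 samples with K16 intact. All 30 samples with K16R were below the parental level. The 5 samples of K5R/K8R/K12R made the groups overlap: against the 19 samples with K16 intact and 1 or 2 substitutions, every sample with K16R was lower. FUS1 alone of the 6 members separated in that way, as did 0.65% of all genes; against all 24 samples with K16 intact none of the 6 separated, and 0.487% of all genes did. The K16R effect on FUS1 was -0.97 within the samples against MDY453 and -1.14 within those against MDY470.

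**Figure D1:**
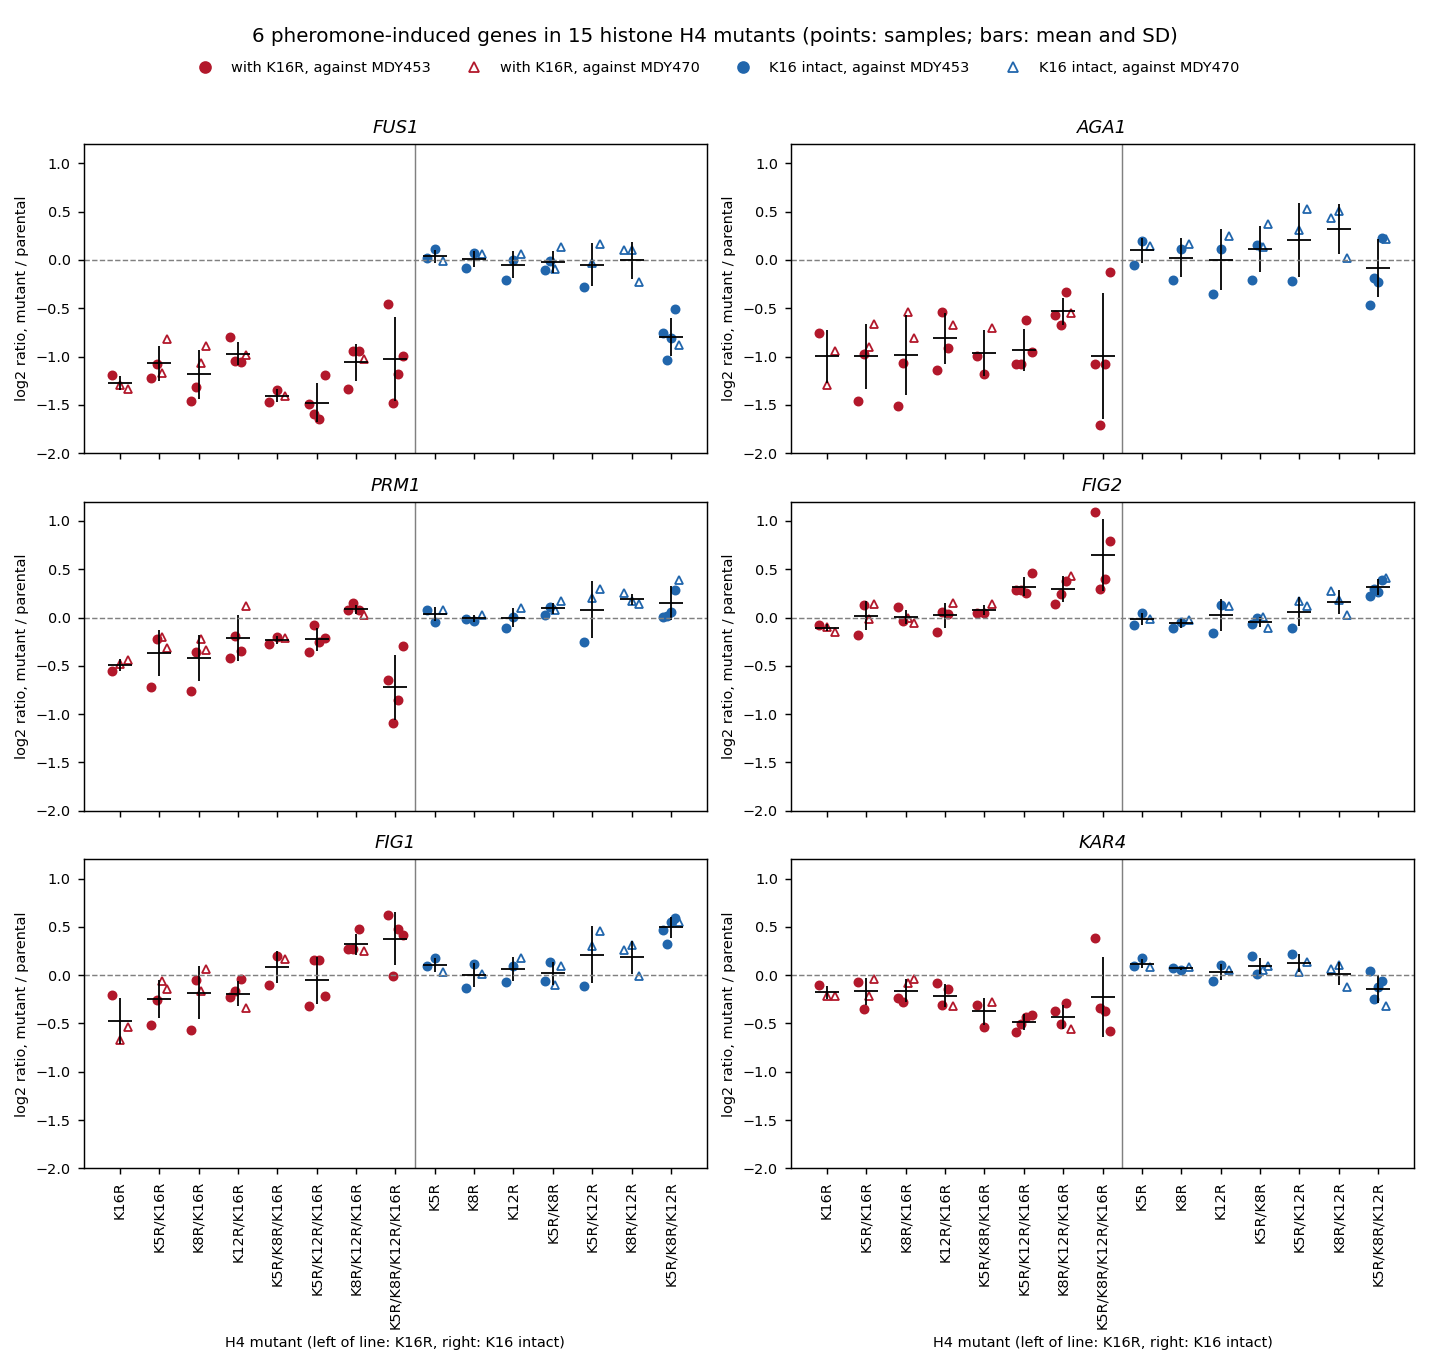
Log2 ratio (likely mutant over parental) of each member gene in every sample, by mutant, with K16R in red on the left and K16 intact in blue on the right; filled dots are samples against MDY453, open triangles samples against MDY470, and bars the mean and SD. FUS1 was low in all 8 mutants with K16R and in K5R/K8R/K12R, while the other mutants with K16 intact lay near 0.

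Among the mutants with K16R, FUS1 was lowest in K5R/K12R/K16R, at -1.65, -1.59, -1.49 and -1.19, and in K5R/K8R/K16R, at -1.48, -1.40 and -1.34. In the single mutant K16R it was -1.34, -1.29 and -1.19. Next in order were K8R/K16R at -1.19 ± 0.25 (mean and SD, n = 4), K5R/K16R at -1.07 ± 0.18 (n = 4) and K8R/K12R/K16R at -1.06 ± 0.19 (n = 4). These mutants formed a continuous range, in which all neighbours overlapped except K5R/K8R/K16R and K16R. The quadruple mutant averaged -1.03 ± 0.43 (n = 4) with values of -1.48, -1.18, -0.99 and -0.45, and K12R/K16R averaged -0.97 ± 0.12 (n = 4). With K16 intact, the triple mutant K5R/K8R/K12R had -1.03, -0.88, -0.80, -0.76 and -0.51. All 5 of its samples were below every sample of the remaining mutants with K16 intact, whose means lay between -0.05 and 0.04.

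AGA1 lay at -1.71, -0.92 and -0.12 (lowest, median and highest) in samples with K16R, against -0.46, 0.14 and 0.53 in samples with K16 intact. All 30 samples with K16R were below the parental level. The mutants with K16R had close means, between -0.999 in K5R/K16R and -0.81 in K12R/K16R, apart from K8R/K12R/K16R at -0.53 ± 0.14 (SD, n = 4). The quadruple mutant had the widest spread, with -1.71 and -1.07 in strain MDY486, -1.08 in MDY469 and -0.12 in MDY487. With K16 intact, the means ran from -0.08 ± 0.30 in K5R/K8R/K12R (n = 5) to 0.32 ± 0.26 in K8R/K12R (n = 3), and all neighbours in the order overlapped. With K16 intact, all 11 AGA1 values against MDY470 were above 0, while the median of the 13 against MDY453 was -0.18, a set that held 4 of the 5 samples of K5R/K8R/K12R. A term for the parental strain, 0.24 ± 0.10 for MDY470 minus MDY453, did not pass (adjusted p = 0.545 in limma). The K16R effect was -0.89 within the samples against MDY453 and -0.93 within those against MDY470.

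PRM1 lay at -1.09, -0.29 and 0.15 (lowest, median and highest) in samples with K16R, against -0.25, 0.08 and 0.39 in samples with K16 intact. It was below 0 in 25 of the 30 samples with K16R and in 5 of the 24 with K16 intact. PRM1 was lowest in the quadruple mutant, at -1.09, -0.85, -0.65 and -0.30, then in K16R, at -0.56, -0.48 and -0.44. K8R/K12R/K16R was the exception, with 0.03, 0.07, 0.08 and 0.15, all above the parental level. The other mutants with K16R averaged between -0.42 in K8R/K16R and -0.21 in K12R/K16R. With K16 intact the means ran from -0.0063 in K8R to 0.19 in K8R/K12R. As with AGA1, all 11 samples with K16 intact against MDY470 were above 0, and the median of the 13 against MDY453 was 0.01. Within the samples against MDY453 the K16R effect was -0.39, and within those against MDY470 it was -0.24.

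KAR4 had the narrowest range, at -0.59, -0.30 and 0.38 (lowest, median and highest) in samples with K16R, against -0.31, 0.06 and 0.21 in samples with K16 intact. Of the 30 samples with K16R, 29 were below 0; the exception was strain MDY469. KAR4 was lowest in the 3 triple mutants with K16R. It averaged -0.48 ± 0.08 in K5R/K12R/K16R (SD, n = 4), -0.43 ± 0.12 in K8R/K12R/K16R (n = 4) and -0.37 ± 0.14 in K5R/K8R/K16R (n = 3). Single and double mutants with K16R lay closer to the parental level, between -0.21 and -0.16. Among mutants with K16 intact, K5R/K8R/K12R averaged -0.14 ± 0.14 (n = 5) and the others between 0.02 and 0.13. The K16R effect on KAR4 was -0.34 against MDY453 and -0.36 against MDY470.

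FIG1 and FIG2 followed another order of mutants. FIG1 lay at -0.67, -0.06 and 0.63 (lowest, median and highest) in samples with K16R, against -0.13, 0.13 and 0.59 in samples with K16 intact. FIG2 lay at -0.18, 0.13 and 1.10 in samples with K16R, against -0.16, 0.04 and 0.41 in samples with K16 intact. Neither gene was uniformly low with K16R: FIG1 was below 0 in 18 of those 30 samples and FIG2 in 9. FIG1 was lowest in the single mutant K16R, at -0.67, -0.54 and -0.21, and highest in K5R/K8R/K12R, at 0.32, 0.47, 0.55, 0.55 and 0.59. FIG2 was also lowest in K16R, at -0.14, -0.10 and -0.07, and highest in the quadruple mutant, at 0.30, 0.40, 0.79 and 1.10. For both genes, neighbouring mutants in the order overlapped throughout.

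**Figure D2:**
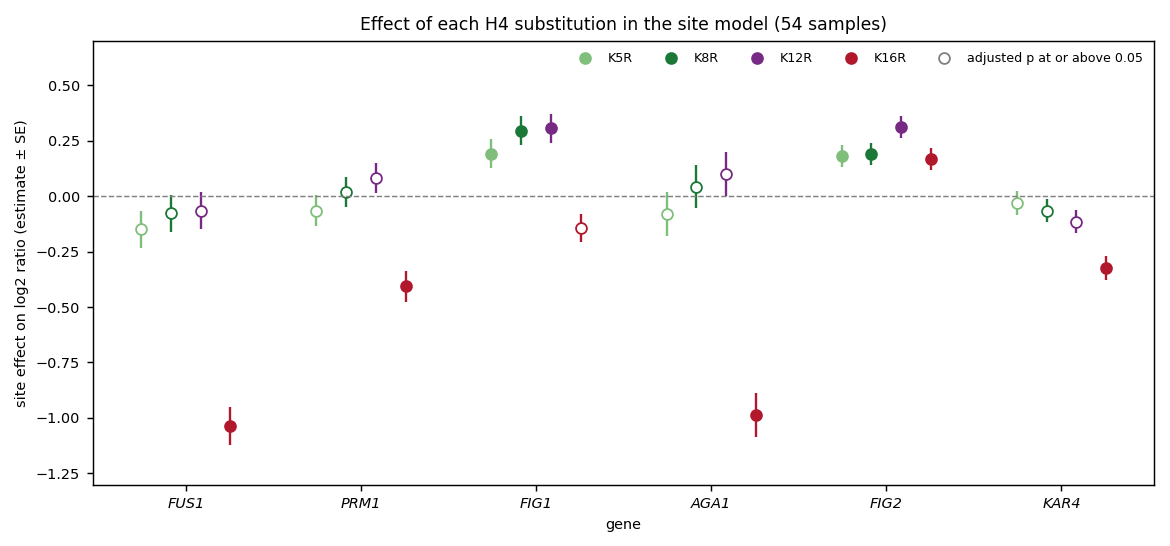
Effect of each single substitution on the 6 members in the site model (log2 difference, with bars for the standard error; open points did not pass). K16R lowered FUS1, AGA1, PRM1 and KAR4, whereas FIG1 and FIG2 rose with K5R, with K8R and with K12R.

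As averages over the backgrounds tested, FIG1 and FIG2 rose with each of the remaining sites. K5R raised FIG1 by 0.19 ± 0.06 (adjusted p = 0.0161) and FIG2 by 0.18 ± 0.05 (adjusted p = 0.00269), 2 of 6 members, where 20.5% of all genes passed as higher. K8R raised FIG1 by 0.29 ± 0.06 (adjusted p = 0.00027) and FIG2 by 0.19 ± 0.05 (adjusted p = 0.00185), where 19.4% of all genes passed as higher. For K12R, FIG1 rose by 0.30 ± 0.06 (adjusted p = 8.66e-05) and FIG2 by 0.31 ± 0.05 (adjusted p = 4.32e-07), where 26.0% of all genes did. In single mutants, set against the parental strain, FIG1 was at 0.001 in K8R, and FIG2 at -0.06 in K8R and -0.02 in K5R, and neither gene passed in a single or double mutant with K16 intact. None of FUS1, AGA1, PRM1 and KAR4 passed for any of these 3 sites.

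As the mean effect of K5R, K8R and K12R, FIG1 rose by 0.26 ± 0.04 (adjusted p = 6.64e-08 in limma) and FIG2 by 0.23 ± 0.03 (adjusted p = 2.81e-09), 2 of 6 members against 32.3% of all genes. KAR4, at -0.07 ± 0.03, was the 1 member that passed as lower (adjusted p = 0.0495), against 31.5% of all genes, and that call was lost on leaving out any of 38 samples (adjusted p up to 0.123). FUS1 had -0.10 ± 0.05 (adjusted p = 0.089), or 0.15 with arrays scaled to equal spread (adjusted p = 0.0292). It passed as lower without MDY469 (-0.15, adjusted p = 0.00446), without the quadruple mutant (-0.21, adjusted p = 0.000327) and without 1 sample of MDY475 (-0.12, adjusted p = 0.0461). AGA1 and PRM1 lay at 0.02 and 0.01. The K16R effect was below the mean effect of the other sites for 5 of 6 members, against 11.4% of all genes. This difference was -1.01 for AGA1, -0.94 for FUS1, -0.42 for PRM1, -0.41 for FIG1 and -0.25 for KAR4. For FIG2 it was -0.06 (adjusted p = 0.477). All 5 also passed within the samples against MDY453 and within those against MDY470.

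Set against the parental strain, each mutant had its own count of members that passed. None of the 6 passed in K5R, K8R or K12R, where 0.632%, 0.325% and 2.87% of all genes did, nor in K5R/K8R, K5R/K12R or K8R/K12R, where 20.1%, 27.6% and 21.3% did. In K16R, 4 passed, all lower, against 18.4% of all genes: FUS1 by -1.28 ± 0.12, AGA1 by -0.99 ± 0.19, PRM1 by -0.49 ± 0.11 and FIG1 by -0.48 ± 0.12. The FIG1 call was lost on leaving out a sample of MDY458 or of MDY475 (adjusted p up to 0.0599). FUS1, AGA1 and PRM1 were lower in K5R/K16R and in K8R/K16R (3 of 6 each, against 23.6% and 20.7% of all genes), and FUS1 and AGA1 in K12R/K16R (2 of 6, against 26.1%). KAR4 in K12R/K16R, at -0.22 (adjusted p = 0.0544), passed in the fit without MDY469 (adjusted p = 0.0101). The PRM1 call in K5R/K16R was lost on leaving out 1 sample of MDY461 (adjusted p = 0.0767).

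In K5R/K8R/K16R, FUS1, AGA1 and KAR4 were lower (3 of 6, against 40.3% of all genes). In K5R/K12R/K16R, FUS1, AGA1 and KAR4 were also lower and FIG2 was higher, by 0.33 (4 of 6, against 56.8%). K8R/K12R/K16R had FUS1, AGA1 and KAR4 lower as well, with AGA1 at -0.53 (adjusted p = 0.0104), and both FIG1 and FIG2 higher by 0.31 (5 of 6, against 46.6%); the FIG1 call there was lost on leaving out 1 sample of MDY468 (adjusted p = 0.0635). In the quadruple mutant all 6 passed, against 73.8% of all genes. There FUS1, AGA1, PRM1 and KAR4 were lower, by -0.9996 ± 0.10, -0.96 ± 0.16, -0.70 ± 0.09 and -0.21 ± 0.08. FIG1 and FIG2 were higher, by 0.39 ± 0.10 and 0.67 ± 0.08. These standard errors rest on a spread per gene that all mutants share. The SDs of the quadruple mutant's own 4 samples were 0.43, 0.65, 0.34, 0.42, 0.27 and 0.37 for these genes in turn. Without MDY469, KAR4 lay at -0.44 in that mutant (adjusted p = 8.45e-07), while its call was lost on leaving out any 1 of the 3 samples of MDY486 and MDY487 (values up to -0.08, adjusted p up to 0.443).

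K5R/K8R/K12R was the mutant with K16 intact in which members passed, 3 of 6 against 60.0% of all genes. FUS1 was lower by -0.81 ± 0.10 (1.75-fold, adjusted p = 6.82e-09), while FIG1 was higher by 0.50 ± 0.10 (adjusted p = 4.25e-05) and FIG2 by 0.33 ± 0.08 (adjusted p = 0.000303). AGA1 lay at -0.05 ± 0.17 (adjusted p = 0.807) and PRM1 at 0.18 ± 0.09 (adjusted p = 0.0953), so neither shared the drop of FUS1. KAR4, at -0.16 (adjusted p = 0.0931), passed in the fit without MDY469 (adjusted p = 0.0264), which made 4 of 6. FUS1 was low in both strains of this mutant, between -1.03 and -0.51 in MDY465 (against MDY453) and at -0.88 in MDY482 (against MDY470).

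**Figure D3:**
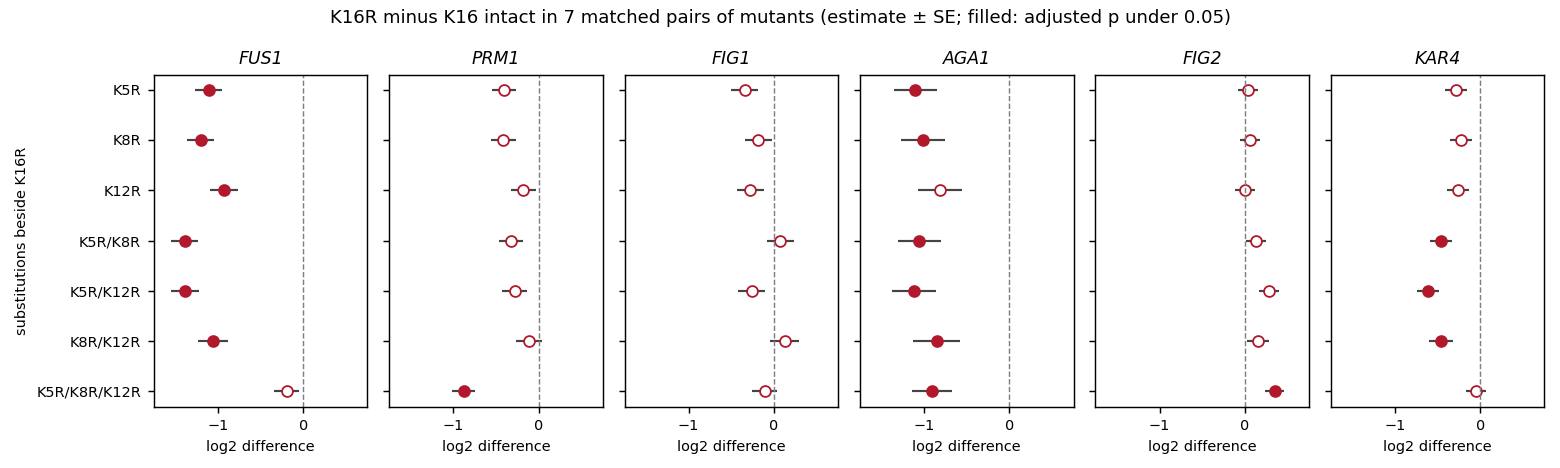
Difference of K16R minus K16 intact in each of 7 pairs of mutants alike at the other lysines, for each member (log2). Bars are the standard error, and filled points passed. FUS1, AGA1, PRM1 and KAR4 were lower with K16R in all 7 pairs, and FUS1 differed least in the pair of the quadruple mutant and K5R/K8R/K12R.

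In 7 pairs, mutants alike at lysines 5, 8 and 12 differed in H4 by K16R alone. The parental strain was not matched within pairs, and the pair values carry no term for it. K8R/K12R had 0 samples against MDY453 and 3 against MDY470, where K8R/K12R/K16R had 3 and 1. For K5R/K12R these were 1 and 2, and for K5R/K12R/K16R 4 and 0. In such pairs K16R and the parental strain cannot be fully told apart. FUS1, AGA1, KAR4 and PRM1 were lower with K16R in 7 of 7 pairs by pair means, FIG1 in 5, and FIG2 was higher in 6. K5R/K16R minus K5R gave -1.11 ± 0.16 for FUS1 and -1.10 ± 0.25 for AGA1, 2 of 6 members lower against 3.07% of all genes. K8R/K16R minus K8R gave -1.20 ± 0.16 and -1.01 ± 0.25 for those genes (2 of 6, against 3.05%). For K12R/K16R minus K12R, FUS1 was lower by -0.93 ± 0.16 (1 of 6, against 2.44%) and AGA1, at -0.82 ± 0.26, did not pass (adjusted p = 0.0729). In these single-substitution backgrounds FUS1 was the 1 member that passed in all 3 pairs. AGA1 passed in the K12R pair too on leaving out any of 4 samples, so FUS1 is not set apart from AGA1 by this.

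When K16R was added to double mutants, KAR4 passed as well. K5R/K8R/K16R minus K5R/K8R gave -1.39 for FUS1, -1.06 for AGA1 and -0.46 for KAR4 (3 of 6 lower, against 4.44% of all genes). K5R/K12R/K16R minus K5R/K12R gave -1.39, -1.11 and -0.61 for those genes (3 of 6, against 9.95%). K8R/K12R/K16R minus K8R/K12R gave -1.05, -0.85 and -0.46 (3 of 6, against 4.37%). The AGA1 calls of the K8R and K8R/K12R pairs, and the KAR4 calls of the K5R/K8R and K8R/K12R pairs, were each lost on leaving out 1 sample, with adjusted p up to 0.106. FIG2 in K5R/K12R/K16R minus K5R/K12R, at 0.28 (adjusted p = 0.0846), passed as higher without MDY469 (adjusted p = 0.0421).

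The pair of the quadruple mutant and K5R/K8R/K12R differed in its members. PRM1 was lower by -0.88 ± 0.13 (adjusted p = 3.5e-07) and AGA1 by -0.91 ± 0.23 (adjusted p = 0.00132), 2 of 6 against 19.3% of all genes. FIG2 was higher by 0.35 ± 0.11 (adjusted p = 0.00779; 1 of 6, against 23.4%), a call lost without MDY469 (0.19, adjusted p = 0.144). FUS1 differed by -0.19 ± 0.15 (adjusted p = 0.299) and KAR4 by -0.05 ± 0.12 (adjusted p = 0.747). Without MDY469 both passed, FUS1 at -0.40 (adjusted p = 0.0218) and KAR4 at -0.28 (adjusted p = 0.0202).

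The K16R difference in the K5R/K8R/K12R background was then tested against the mean of the 6 other pairs, a contrast chosen after seeing the data. FUS1 had -0.19 in that background and -1.18 in the others, a difference of 0.98 ± 0.16 (adjusted p = 3.29e-06). PRM1 went the opposite way, at -0.88 in that background and -0.29 in the others, a difference of -0.59 ± 0.14 (adjusted p = 0.000991). KAR4 had -0.05 and -0.38, a difference of 0.33 ± 0.13 (adjusted p = 0.0393). These were 3 of 6 members, against 35.1% of all genes. Without MDY469, FUS1 differed by 0.78 (adjusted p = 7.97e-05) and PRM1 still passed (adjusted p = 0.00195), whereas KAR4 differed by 0.11 (adjusted p = 0.467). AGA1 had close values, -0.91 and -0.99, with a difference of 0.08 (adjusted p = 0.831).

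**Figure D4:**
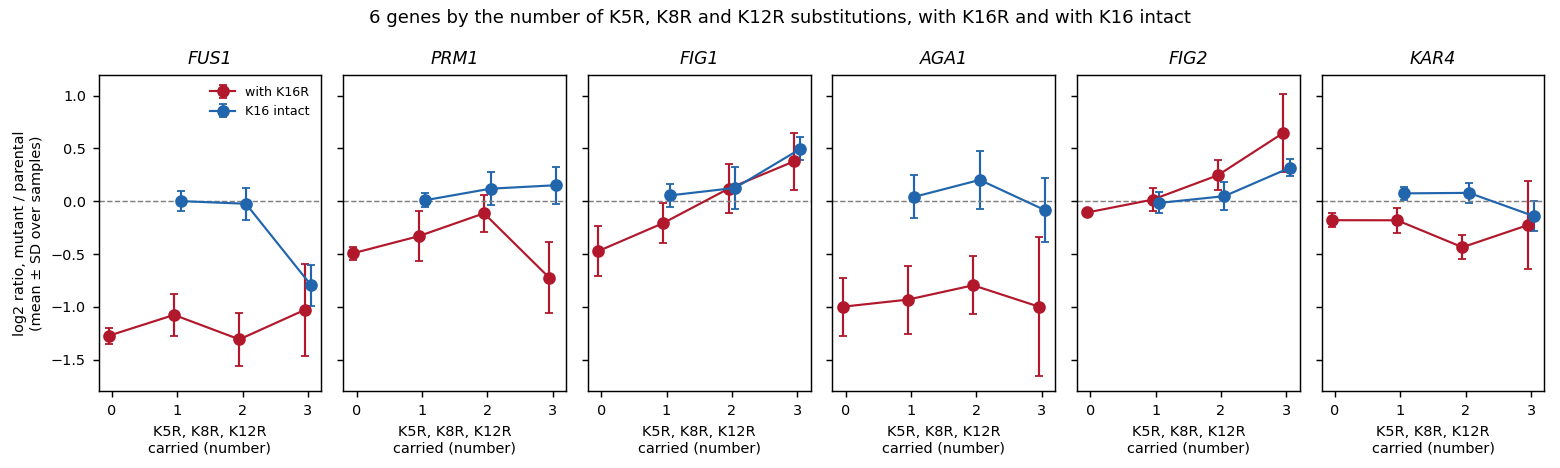
Log2 ratio of each member against the number of substitutions at lysines 5, 8 and 12, with K16R (red) and K16 intact (blue); points are means over samples and bars the SD. FUS1 with K16 intact stayed near 0 at 1 and 2 substitutions and averaged -0.80 at 3, while FIG2 with K16R averaged 0.65 at 3.

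By the number of substitutions among lysines 5, 8 and 12, FUS1 in strains with K16R averaged -1.27, -1.08, -1.31 and -1.03 at 0, 1, 2 and 3. In strains with K16 intact it averaged 0.0018, -0.02 and -0.80 at 1, 2 and 3. FUS1 was therefore low at every count with K16R, and low with K16 intact at 3 alone. FIG2 with K16R averaged -0.11, 0.02, 0.25 and 0.65 at 0 to 3, and FIG1 averaged -0.47, -0.21, 0.12 and 0.38. With K16 intact, FIG2 averaged -0.02, 0.05 and 0.32 at 1 to 3, and FIG1 averaged 0.06, 0.13 and 0.50. PRM1 with K16R lay at -0.49, -0.33, -0.11 and -0.72, so its mean was higher at each step up to 2 further substitutions and lowest in the quadruple mutant.

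These steps were tested as contrasts chosen after seeing the data. K5R/K8R/K12R minus the mean of the 3 double mutants with K16 intact gave -0.78 ± 0.13 for FUS1 (adjusted p = 2.79e-06), 0.37 ± 0.12 for FIG1 (adjusted p = 0.0157) and 0.27 ± 0.09 for FIG2 (adjusted p = 0.0184), 3 of 6 against 35.2% of all genes. The FIG1 and FIG2 calls were lost without MDY482 (adjusted p = 0.0561 and 0.0887), and KAR4, at -0.24 (adjusted p = 0.0562), passed without MDY469 (adjusted p = 0.011). Triple minus double mutants, all with K16R, gave -0.25 ± 0.07 for KAR4, -0.23 ± 0.09 for FUS1, 0.32 ± 0.09 for FIG1 and 0.22 ± 0.07 for FIG2, 4 of 6 against 35.0%, but the FUS1 call (adjusted p = 0.0442) was lost on leaving out any of 12 samples. The quadruple mutant minus the mean of the 3 triple mutants with K16R gave -0.58 ± 0.11 for PRM1 (adjusted p = 1.5e-05), 0.43 ± 0.09 for FIG2, 0.31 ± 0.12 for FUS1 and 0.28 ± 0.12 for FIG1, 4 of 6 against 54.5%. Without MDY469, FIG2 was at 0.27 and still passed (adjusted p = 0.00872), while FUS1 was at 0.10 (adjusted p = 0.52) and FIG1 at 0.19 (adjusted p = 0.239).

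The mean effect of K5R, K8R and K12R was also estimated apart in strains with K16R and with K16 intact. For FUS1 it was 0.03 ± 0.06 with K16R (adjusted p = 0.711) and -0.34 ± 0.08 with K16 intact (adjusted p = 0.000578). The difference, 0.36 ± 0.10, passed (adjusted p = 0.0208), and FUS1 was the 1 member of 6 for which it did, against 4.73% of all genes. That call was lost without MDY469 (0.29, adjusted p = 0.0617) and without MDY482 (0.31, adjusted p = 0.0837). With K16R, 2 members passed, FIG1 by 0.30 and FIG2 by 0.27, against 60.7% of all genes. With K16 intact, FIG1 by 0.19 and FIG2 by 0.15 passed beside FUS1, 3 of 6 against 34.9%.

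Across the 15 mutant means, FUS1 moved most like AGA1 (Pearson r = 0.932) and KAR4 (r = 0.910), and AGA1 and KAR4 had r = 0.781. PRM1 was closest to AGA1 (r = 0.854), and FIG1 and FIG2 were closest to each other (r = 0.675). By Spearman correlation, AGA1 and PRM1 were the closest pair of members (0.861). FIG2 ran opposite to KAR4 (r = -0.481). These coefficients describe 15 means from shared arrays against shared parental strains. Outside the 6 genes, those most like FUS1 were FUS3 (r = 0.976), the MAP kinase of the pheromone route, GYP8 (r = 0.968), a GTPase activator, and NEJ1 (r = 0.966), a haploid factor of DNA end joining. AGA1 was closest to GYP8 (r = 0.972), RDH54 (r = 0.970), a DNA translocase of recombination, and STE12 (r = 0.967), the pheromone transcription factor. KAR4 was closest to HUA2 (0.964), ARR1 (0.952) and SGE1 (0.951), and PRM1, less closely, to YNL046W (0.899), MGM1 (0.895) and NIS1 (0.874).

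FIG1 was most like YGR026W (r = 0.902), the lipase gene LPL1 (0.896) and BNA1 (0.895), an enzyme gene of NAD synthesis. FIG2 was most like ATP7 (r = 0.980), a subunit of ATP synthase, AMS1 (0.975), the vacuolar mannosidase, and RDL1 (0.972). None of the genes nearest to FIG1 or FIG2 was among those nearest to FUS1 or AGA1, but the same held for KAR4 and PRM1. With only 3 genes named per member out of 5534, this does not set FIG1 and FIG2 apart. The mean profile of the 6 members was closest to AMN1 (r = 0.979), an antagonist of mitotic exit, STE12 (0.954) and ASG7 (0.952). The choice of measure mattered: ranked by Spearman correlation, FUS3 was again among the 3 genes nearest to FUS1, HUA2 and SGE1 to KAR4, YGR026W to FIG1 and ATP7 to FIG2, but none of the genes named for AGA1 or PRM1 was.

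**Figure D5:**
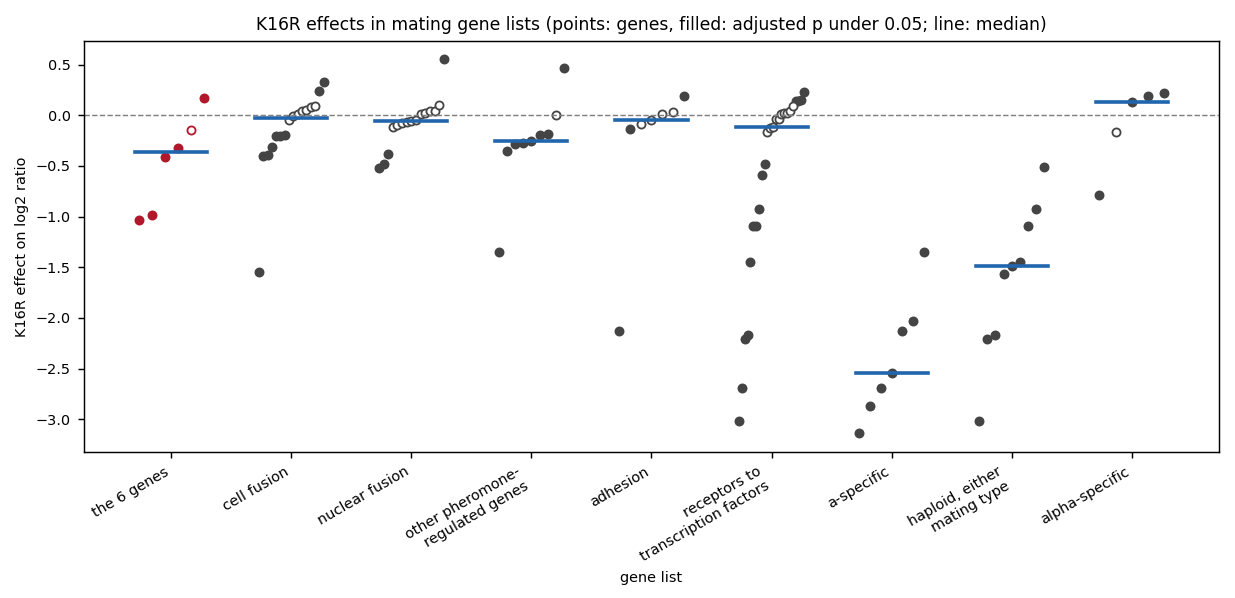
K16R effect (log2, site model) of the members, of the genes in each list of the mating pathway and of the marker genes, 1 point per gene, filled where it passed, with a line at each median. Some signalling genes lay below all 6 members, and every a-specific and haploid marker was lower with K16R.

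The rest of the pathway showed a wider range of K16R effects than the 6 genes. Of 24 signalling genes, 10 were lower, 4 higher and 10 did not pass, where 19.0% of all genes passed as lower and 20.3% as higher. Their median effect was -0.12, against -0.000354 over all genes. The 4 higher genes were STE7 at 0.23, MCM1 at 0.15, STE50 at 0.14 and STE11 at 0.14. The kinase genes STE20 (0.04) and KSS1 (-0.04) and the receptor gene STE3 (-0.16) did not pass. The largest drops were those of GPA1, the G protein alpha subunit, at -3.01, and STE2, the alpha-factor receptor, at -2.69. FAR1, the arrest factor, followed at -2.20 and FUS3 at -2.17. STE12 was at -0.58. The log2 differences of FUS1 and AGA1 (-1.04 and -0.98) lay between that of STE12 and those of GPA1, STE2, FAR1 and FUS3. The probes' levels were not compared.

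The lists below are to be set beside the 19.0% of all genes that passed as lower and 20.3% as higher with K16R. Of 16 further cell fusion genes, 7 were lower and 2 higher with K16R (median -0.02). Among them SST2, which restrains the G protein, was at -1.55 ± 0.09 (adjusted p = 5e-21). Of 15 nuclear fusion genes, 3 were lower, about the share over all genes, and 1 higher (median -0.06). KAR5, of the nuclear envelope, was at -0.48 and BIM1, a microtubule end protein, at -0.38. Of 9 other pheromone-regulated genes, 7 were lower and 1 higher (median -0.26), with ASG7, an a-specific regulator of signalling, at -1.35 and PRM7 at 0.46. Of 7 adhesion genes, 2 were lower and 1 higher (median -0.05). AGA2, the binding subunit that Aga1 anchors, was at -2.13 ± 0.09 (adjusted p = 1.45e-27) beside the difference of -0.98 of AGA1 itself, and SAG1, the agglutinin of alpha cells, was at 0.19 (adjusted p = 0.012). As the mean effect of K5R, K8R and K12R, the cell fusion list had 4 lower and 7 higher of 16, the nuclear fusion list 7 and 4 of 15, the other pheromone-regulated genes 2 and 4 of 9, the adhesion genes 1 and 2 of 7 and the signalling genes 7 and 10 of 24, beside the 31.5% lower and 32.3% higher of all genes.

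Markers of mating type and ploidy were also set against K16R, but these lists share genes with those above. STE2, STE3, GPA1, STE4, STE18, STE5, FUS3 and FAR1 were already counted among the signalling genes. AGA2 and SAG1 were counted among the adhesion genes, and ASG7 among the other pheromone-regulated genes. All 7 a-specific markers and all 9 haploid markers were lower with K16R, where 19.0% of all genes passed as lower and 20.3% as higher. Of 5 alpha-specific markers, AFB1 was lower (-0.79) and 3 were higher, MF(ALPHA)1 at 0.22, SAG1 at 0.19 and MF(ALPHA)2 at 0.13. STE3, at -0.16, did not pass. The mean of the a-specific markers lay between -3.19 and -1.24 in samples with K16R, against -0.09 to 0.37 with K16 intact. The mean of the haploid markers lay between -2.10 and -1.18 with K16R, against -0.40 to 0.05 with K16 intact, and neither range overlapped between groups. Alpha-specific markers overlapped, at -0.44 to 0.45 with K16R against -0.16 to 0.43. A log ratio has no zero level, so whether a marker was absent could not be read, and the part of these shifts in the drop of the members was not tested.

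In K5R/K8R/K12R, where 60.0% of all genes passed, the drop of FUS1 was set beside STE2, GPA1, FUS3 and STE12 alone. The other signalling genes were not examined in this mutant. FUS3 was lower by -1.34 ± 0.14 (adjusted p = 1.11e-11), while STE2 at -0.04 ± 0.10 (adjusted p = 0.773) and GPA1 at -0.07 ± 0.09 did not pass, and STE12 was at 0.14 ± 0.05 (adjusted p = 0.0156). FUS3 also passed as lower in K5R/K8R (-0.39), K5R/K12R (-0.43) and K8R/K12R (-0.52), where FUS1 did not pass. In those mutants 20.1%, 27.6% and 21.3% of all genes passed. In the quadruple mutant STE2 was at -3.61, GPA1 at -3.38, FUS3 at -2.42 and STE12 at -0.55. The haploid marker mean of the 5 samples of K5R/K8R/K12R lay between -0.40 and -0.22. It was below the -0.09 to 0.05 of the samples with K16 intact and fewer substitutions. That mean includes FUS3 and GPA1, so it does not stand apart from the values above. As the mean effect of K5R, K8R and K12R with K16 intact, 3 of the 9 haploid markers were lower and 1 higher. The remaining 5 did not pass, where 17.4% of all genes passed as lower and 17.6% as higher. The a-specific mean of the 5 samples lay between -0.09 and 0.19, and their alpha-specific mean between 0.19 and 0.43. The part of these markers in the drop of FUS1 was not tested.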

How the data were processed

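RNA of 15 histone H4 mutants was hybridised against parental RNA on 55 arrays. The deposited table holds the authors' log2 ratio per probe and array. Base 2 was inferred from the limit of the values (6.64, a ratio of 100). How the authors corrected background and normalized, and with which dyes, is not given in the sources used here. The direction, likely mutant over parental, rests on the parental strain being channel 1 of every array, per the labels.

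Values at that limit (43 in named probes, none in the members) were set to missing, and arrays were centred on their medians. Of 6720 probes, 5570 named 1 gene, 0 several and 1150 none; probes of a gene were averaged, which gave 5540 genes. A pair of arrays labelled as technical replicates was averaged, which left 54 samples of 30 strains. Gene names were set against the R64 gene table (5565 probes matched).

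The linear models were made in limma 3.58.1 (R 4.3.3; two-sided moderated tests from eBayes, adjusted by Benjamini-Hochberg over 5540 genes, threshold 0.05), with the mutant strain as a random block (correlation 0.346 in the site model, 0.349 in the interaction model and 0.205 in the mutant model). The site model held an intercept and 1 term per substitution, the interaction model added the products with K16R, and the mutant model gave each mutant its mean, tested against 0. That last test leaves out the parental strain's own spread. In each model a gene's residual spread was shared by all mutants. Standard errors may therefore be too small where samples spread widely, as in the quadruple mutant. The labels do not say that every array is a separate culture, so p-values measure the spread between these samples, which may be technical. The fitting code was tested on simulated data. Genes most like a member were the 3 with the highest Pearson correlation over mutant means (5 for the mean profile). All members were named, with the 2 strongest genes of each list and STE2, GPA1, FUS3 and STE12; 1 gene of the cell fusion list is not reported here. The members, lists and tests were chosen with earlier results of these data known. Alternatives changed the scaling, intercept, block, parental strain, technical pair and samples; the fits without MDY469 and with title marks as a block were added after seeing the data. No sequence was used here.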

Additional observations from a re-analysis of the deposited data

Results flagged for a closer look

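FIG1 in 1 sample of K8R/K12R/K16R, from strain MDY468, lay at 0.4787, apart from 0.25, 0.27 and 0.28 in the other samples of that mutant. Its gap over the range was 0.8731, past Dixon's critical value for a group of this size. It was the 1 such case in 48 groups of 4 or 5 samples examined; chance alone gives about 1 in 20 groups.

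The effect of K5R, K8R and K12R on FUS1 differed between strains with K16R and strains with K16 intact, by 0.362 on the log2 scale (0.03 with K16R and -0.34 with K16 intact, adjusted p = 0.0208 in limma). That call was lost without MDY469 and without MDY482 (adjusted p up to 0.0837). It was also lost with strain means, with either parental strain alone and without the quadruple mutant.

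The effect of K16R differed between the K5R/K8R/K12R background and the mean of the 6 others for FUS1 (0.9844), KAR4 (0.3305) and PRM1 (-0.5923). The sign was opposite for PRM1, and the KAR4 difference was not kept without MDY469 (0.11, adjusted p = 0.467). These contrasts were chosen after seeing the data.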

How the results depend on the processing

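The K16R calls of FUS1, AGA1, PRM1 and KAR4 held under every alternative run. The count of members that passed for K16R was 5 (4 lower and 1 higher). It was 4 (4 lower and 0 higher) with samples against MDY453 only and against MDY470 only, 5 (5 lower and 0 higher) without an intercept and with arrays scaled, 6 without the block, with strain means, without the quadruple mutant and without MDY469, and 5 to 6 with single samples left out; for K16R minus the mean of the other sites it was 5 throughout the samples left out. For the mean effect of K5R, K8R and K12R it was 3, against 5 with arrays scaled to a common spread (0 lower and 5 higher), 5 without the quadruple mutant (2 lower and 3 higher) and 2 to 4 with single samples left out. For the interaction it was 1, against 2 without an intercept, and 0 with strain means, with samples against MDY453 only, with samples against MDY470 only, without the quadruple mutant and without MDY469, and 0 to 1 with single samples left out. The number of gene-by-mutant calls, over 6 members in each of 15 mutants, was 33, and 32 to 35 with single samples left out. By mutant, the share of all genes that passed ran from 0.325% in K8R to 73.8% in the quadruple mutant. Of the values for single members, the fits by title mark aside, 332 kept their direction and side of the threshold, 19 lost the call, 19 gained one and 14 changed sign.

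Changes of sign in the mean effect of K5R, K8R and K12R were those of FUS1 (0.15, scaled, adjusted p = 0.0292), AGA1 (-0.0242 to 0.0543 with samples left out) and PRM1 (-0.0062 without centring, -0.0085 against MDY453 only, -0.0038 to 0.0371 with samples left out). In the interaction they were AGA1 (-0.0074 without an intercept, down to -0.0239 with a sample left out), KAR4 (-0.0581 without an intercept, -0.0652 without the quadruple mutant, -0.0325 without MDY469, -0.0319 to 0.0630 with samples left out) and PRM1 (0.0774 scaled, 0.0710 against MDY470 only, 0.10 without the quadruple mutant). The cause was not tested.

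Over all genes, 2175 passed for K16R, against 1259 without an intercept, 1338 against MDY453 only and 690 against MDY470 only. For the mean of the other sites 3538 passed, against 1706 against MDY470 only. For K16R minus that mean 1079 passed, against 1640 scaled, 1706 without the block, 503 against MDY453 only, 543 against MDY470 only and 1724 without the quadruple mutant. For the interaction 262 passed, against 2299 without an intercept, 571 without the block, 46 with strain means, 24 against MDY453 only, 0 against MDY470 only, 43 without the quadruple mutant and 133 without MDY469. With only 1 parental strain, fewer samples enter the fit. Some titles carry a mark, (s) on 13 samples and (2) on 21, whose meaning is not given. Entered as a replicate block after seeing the data, the mark gave counts of 6 for K16R (FIG1 passed, adjusted p = 0.0293), 3 for the mean of the other sites (FUS1 lower, -0.13, in place of KAR4), 5 for K16R minus that mean and 1 for the interaction, and the whole mark gave the same counts. Under the block, the mean of the other sites changed sign for AGA1 (-0.0225, or -0.0316 with the whole mark) and PRM1 (-0.00015), and the interaction for AGA1 (-0.0510, whole mark). Deviations from mutant means had a median r of 0.0494 between samples with the same mark (-0.555 to 0.700), against -0.0266 with another. Most samples marked (2) were against MDY470, so mark and parental strain largely overlap. Whether the marks stand for a batch was not tested. The fits without an intercept, with 1 parental strain and without the quadruple mutant were not run for the counts per mutant. No intensities were at hand, and 3 to 5 samples per mutant limit what could be detected.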
